A study of Homo sapiens with 6 samples.

Results

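The genes described here carry out or report glucose use: glycolysis, the pentose phosphate pathway, the polyol and hexosamine branches, the handling of lactate and pyruvate, and glucose sensing. They are 38 of the 30618 genes with counts, found in the count and FPKM tables by their gene symbols. Transcripts were measured by polyA RNA-seq in ARPE-19, a human cell line derived from retinal pigment epithelium. The NC group held 3 libraries of cells given a control siRNA, and the siEIF1 group held 3 libraries of cells given an siRNA against EIF1, a factor that helps the ribosome select the start codon. Both siRNAs were delivered with a lipid reagent, and per the study's design every library came from cells in 50 mM glucose, which served as its model of diabetic retinopathy. No library from a lower glucose level or with an osmotic control was analysed here, so every comparison is between siRNAs at one glucose level and none is a response to glucose. The libraries were independent biological replicates of a single cell line per the study's methods, and were sequenced in a single run.

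Glycolysis splits glucose into pyruvate in the cytosol, and its flow is set mainly at hexokinase, phosphofructokinase and pyruvate kinase. Glucose that leaves this route enters the pentose phosphate pathway, which yields NADPH and ribose, the polyol pathway, which yields sorbitol and fructose, or the hexosamine pathway, which yields the sugar donor for protein glycosylation. High glucose also acts on genes through MLXIP (MondoA) and its partner MLX, which bind paired E-box-like letters in promoters and switch on TXNIP and ARRDC4. In the eye, retinal pigment epithelium passes glucose from the choroid to the photoreceptors and takes up the lactate that photoreceptors release.

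Library totals lay between 26499929 and 31431479 counts. EIF1, the siRNA target, was at 294, 281 and 281 FPKM in NC replicates 1 to 3 and at 24.3, 22.7 and 23.5 FPKM in siEIF1 replicates 1 to 3, a log2 fold change of -3.58 ± 0.0549 (SE; adjusted p = 1.08e-13). Of the retinal pigment epithelium markers examined, 5 had a mean above 1 FPKM (BEST1, MITF, OTX2, KRT8 and KRT18), while RLBP1, LRAT, TYR, TYRP1 and PMEL stayed below 1 FPKM in every library. The summed level of the 10 markers with values was 521 to 540 FPKM in NC and 563 to 610 FPKM in siEIF1 libraries. Most of this sum was KRT18 (320 to 390 FPKM over all libraries) and KRT8 (106 to 136 FPKM). MITF and OTX2 were not called (adjusted p = 0.638 and 0.176). KRT8 and KRT18 were higher by 0.24 and 0.25 on the log2 scale (adjusted p = 0.0095 and 0.00442), and their part in any result was not tested. RLBP1 was called higher as well (log2 fold change 1.55, adjusted p = 0.00102), and BEST1 was at 60.5 to 70.8 FPKM in NC and 38.8 to 62.1 FPKM in siEIF1 libraries and was not called (-0.32, adjusted p = 0.106). Summed endothelial and photoreceptor markers were at or below 0.07 FPKM. The leukocyte marker CD68 was at 0.83 to 0.97 FPKM. RPE65, a further marker of retinal pigment epithelium, and PTPRC, a further leukocyte marker, had no values. The siEIF1 replicate 3 library stood apart from the others on the second principal component (-138, against 61.7 and 75.9 for the other siEIF1 libraries). Results that rest on it are given with and without it.

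The members covered a wide range of levels, here compared per transcript length as FPKM. GAPDH, the dehydrogenase of the middle of glycolysis, led with 1362 ± 19.3 FPKM (SD, n = 3) in the NC group and ranked 20 among all genes with FPKM values. ENO1 (enolase, 369 ± 3.33), TPI1 (triose-phosphate isomerase, 223 ± 4.93) and PKM (pyruvate kinase, 165 ± 1.71) followed, each clear of its neighbour. LDHA and TXNIP came next at 96.9 ± 9.19 and 93.9 ± 3.65 FPKM and did not differ beyond their spread. TKT, PGK1, the glucose transporter SLC2A1, the lactate exporter SLC16A3, AKR1B1 and TALDO1 formed an unbroken run from 58.9 down to 44.5 FPKM in which each neighbour overlapped the next. Below 10 FPKM lay, among others, HK2, ARRDC4, GFPT1, SLC2A3, ALDOC and all 3 PFKFB genes. GFPT2 was close to absent, with 0 to 3 counts per library and at most 0.02 FPKM, and was the only member removed by the filter on low counts.

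The values of ALDOA and LDHB do not stand for the whole gene. ALDOA (aldolase A) had only 144 to 199 counts per library, while a gene model on the same strand that covers 42.8% of its exon bases, ENSG00000285043, had 32549 to 41437. LDHB (lactate dehydrogenase B) had 892 to 1120 counts, against 18274 to 20319 for ENSG00000285854, which covers 33.4% of its exon bases on the same strand. Neither overlapping gene was called, at log2 fold changes of 0.06 ± 0.0570 (adjusted p = 0.484) and -0.08 ± 0.0514 (adjusted p = 0.312). How the counting split reads between each pair is not given in the sources used here, so the level of aldolase A and lactate dehydrogenase B in these cells is uncertain. Both gene models, and the one over GAPDH described below, were picked out after their values were seen.

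**Figure D1:**
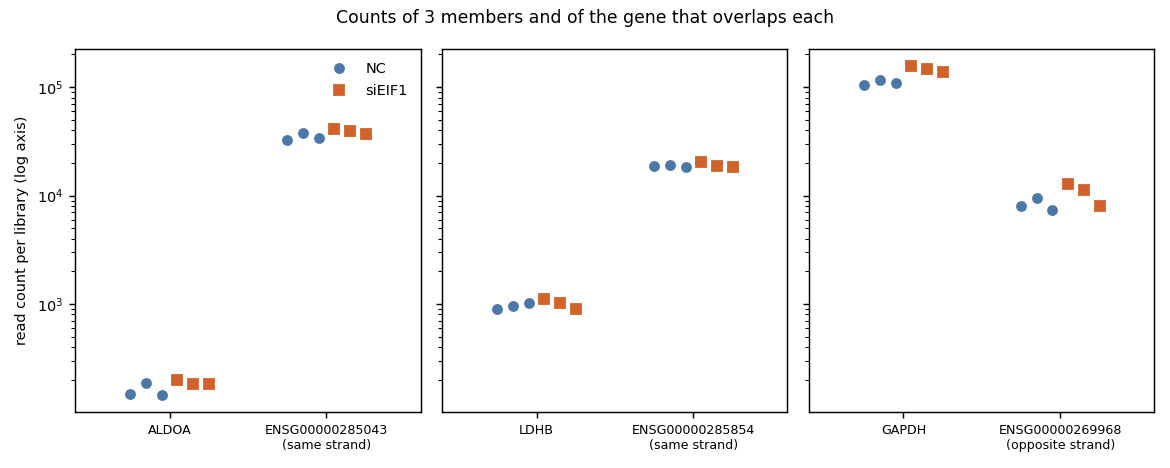
Read counts per library (log axis) of ALDOA, LDHB and GAPDH and of the gene model that overlaps each, with NC libraries as circles and siEIF1 libraries as squares. The ALDOA and LDHB counts sit far below those of their same-strand partners, whereas GAPDH sits above its opposite-strand partner in all 6 libraries.

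With EIF1 knocked down, individual steps of glucose metabolism were higher or lower in near equal number. PFKL, ALDOC, PFKFB2, TKT and GAPDH rose (5 members), and HK2, ARRDC4, ENO2, PGK1 and SLC16A1 fell (5 members). The 37 members tested had log2 fold changes from -0.41 to 0.51, so none passed the study's limit of a fold change above 2 or below 0.5. A gene is called here at an adjusted p under 0.05 in edgeR's quasi-likelihood test, and 1.71% of all 16749 tested genes were called and also passed that limit. The 10 called members made up 27.0% of those tested, against 20.6% of all tested genes, with 10.2% of all genes called higher and 10.4% called lower. The members were counted more deeply than most genes, with a median mean count of 3623 against 447. Among the 5297 genes with a mean count of at least 1000, 30.6% were called, and among the 26 members above that count 7 were called (26.9%). The share of members called was thus near that of genes of like depth. Their median log2 fold change was -0.00025, against 0.0033 for all tested genes, with 18 members above 0 and 19 below. In bulk libraries such as these, fewer cells of one state and less RNA per cell cannot be told apart. The count of fallen members was 3 without NC replicate 1, 2 without NC replicate 2 and 3 without siEIF1 replicate 2. In CPM (counts scaled to library size), the libraries of the groups did not overlap for 18 members (11 higher and 7 lower in siEIF1), or 48.6%, against 37.1% of all tested genes. Unlike the share called, this share was not compared with genes of like depth.

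**Figure D2:**
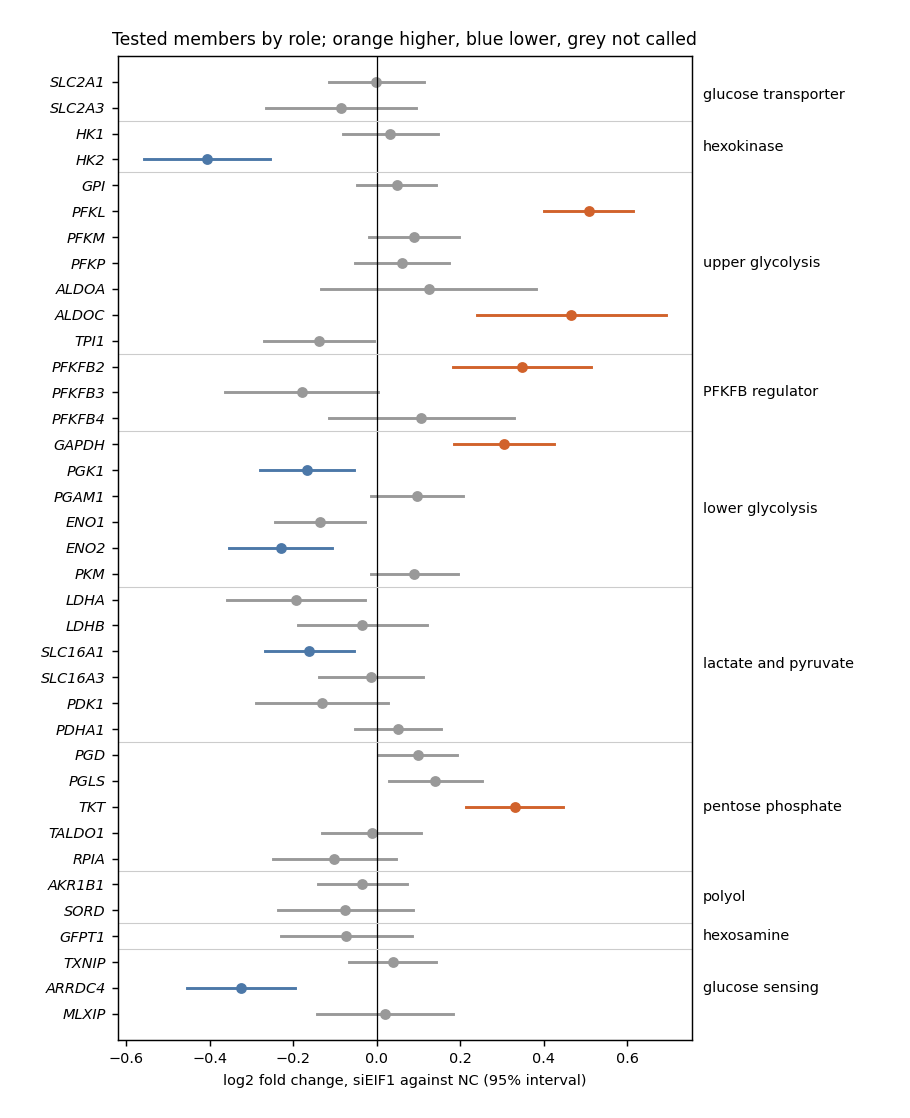
Log2 fold changes of the 37 tested members in siEIF1 against NC libraries (points) with 95% intervals (lines), ordered by role, orange for members called higher, blue for members called lower and grey for the rest. Called members are scattered over the roles, from HK2 at -0.41 to PFKL at 0.51.

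Glucose enters these cells through facilitative transporters, and neither member of this kind was called. SLC2A1 (GLUT1), the main transporter of retinal pigment epithelium, was at 51.2, 55.1 and 52.9 FPKM in NC and 52.6, 53.1 and 51.1 FPKM in siEIF1 libraries. The groups overlapped, and the 95% interval of its log2 fold change ran from -0.11 to 0.11. SLC2A3 (GLUT3), a high-affinity transporter, had 4.22 ± 0.447 FPKM in NC and 3.93 ± 0.310 in siEIF1 libraries, with an interval from -0.26 to 0.09. SLC2A1 made up 92.6% of the summed FPKM of the pair in NC and 93.0% in siEIF1 libraries, with overlapping groups.

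Hexokinases trap glucose in the cell by phosphorylation. HK2, the inducible form (ENSG00000159399, forward strand of chr2:74834127-74893359), was at 5.49, 5.46 and 4.79 FPKM in NC and 3.80, 3.77 and 4.16 FPKM in siEIF1 libraries. All siEIF1 values were below all NC values. HK2 fell by 24.5% (log2 fold change -0.41 ± 0.0697, adjusted p = 0.00114). HK1, the constitutive form and the more abundant one, had 16.2 ± 0.333 FPKM in NC and 16.3 ± 1.30 in siEIF1 libraries, with overlapping groups and an interval from -0.08 to 0.15. HKDC1, a hexokinase-like gene outside the members, fell by 0.53 on the log2 scale (adjusted p = 0.000461), from 12.1 ± 1.17 to 8.22 ± 1.01 FPKM. Summed over the 3 genes, hexokinase transcripts went from 33.5 ± 1.65 FPKM in NC to 28.4 ± 2.53 in siEIF1 libraries, and the share of HK1 was 48.3% ± 1.44 in NC and 57.4% ± 0.505 in siEIF1 libraries, without overlap for either value. No test was run on these sums and shares, which are given as descriptions.

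**Figure D3:**
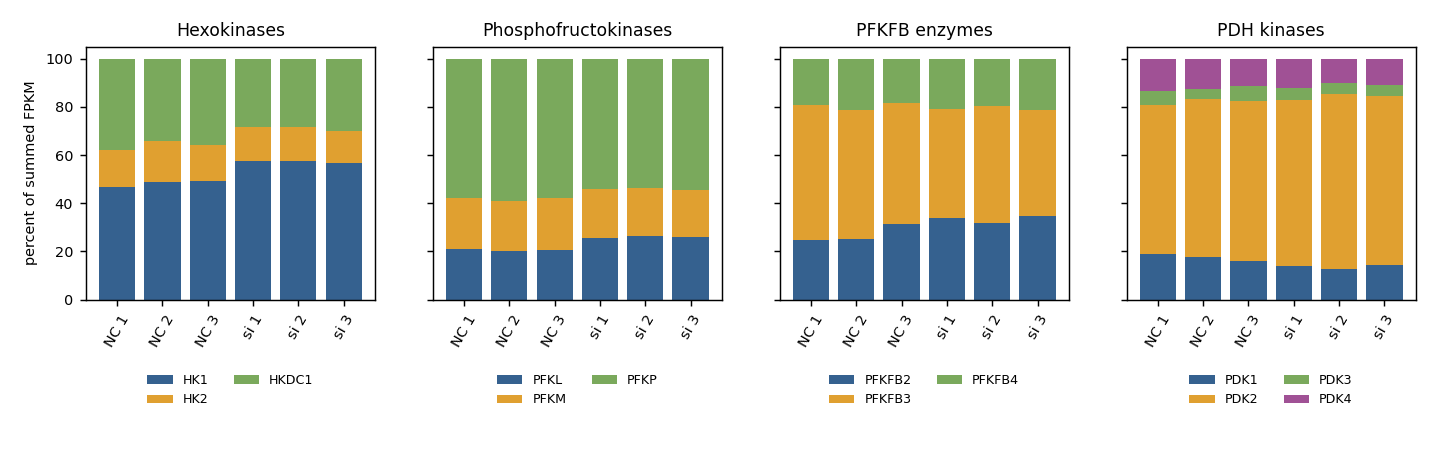
Percent of the summed FPKM that each isozyme holds in every library (stacked bars, NC 1 to 3 and siEIF1 1 to 3, written si) for hexokinases, phosphofructokinases, PFKFB enzymes and pyruvate dehydrogenase kinases. The shares of HK1, PFKL, PFKFB2 and PDK2 are higher in all 3 siEIF1 libraries than in any NC library.

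Phosphofructokinase makes the committed step of glycolysis and is built from 3 kinds of subunit. PFKL, the liver-type subunit (ENSG00000141959, forward strand of chr21:44300051-44327376), was at 12.8, 13.5 and 13.5 FPKM in NC and 18.0, 19.1 and 18.5 FPKM in siEIF1 libraries. The groups were far apart relative to their spread. It rose 1.42-fold, the largest increase among the members (log2 fold change 0.51 ± 0.0499, adjusted p = 1.41e-05). PFKP, the platelet type, was the most abundant subunit at 37.5 ± 1.92 FPKM in NC and 38.6 ± 0.609 in siEIF1 libraries and was not called (interval -0.05 to 0.17). PFKM, the muscle type, had 13.7 ± 0.618 and 14.3 ± 0.191 FPKM (interval -0.02 to 0.20). The share of PFKL in the summed subunits was 20.6% ± 0.321 in NC and 25.9% ± 0.3998 in siEIF1 libraries, that of PFKP 58.2% ± 0.541 and 54.0% ± 0.417, and the sum 64.4 ± 2.88 and 71.5 ± 1.19 FPKM, with no overlap for any of the 3 values.

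The PFKFB enzymes make and break down the sugar bisphosphate that activates phosphofructokinase, and of the 3 members of this kind 1 was called. PFKFB2, the heart-type form (ENSG00000123836, forward strand of chr1:207034366-207081024), was at 1.36, 1.37 and 1.65 FPKM in NC and 1.79, 1.80 and 1.91 FPKM in siEIF1 libraries. It rose by 27.3% (log2 fold change 0.35 ± 0.0768, adjusted p = 0.00594), with no overlap between groups, but missed the threshold with limma on log2(FPKM + 1) (adjusted p = 0.0685). PFKFB3, the form with the strongest kinase activity and the most abundant of the 3, had 2.90 ± 0.207 FPKM in NC and 2.52 ± 0.196 in siEIF1 libraries and was not called (log2 fold change -0.18, interval -0.36 to 0.004). PFKFB4 had 1.06 ± 0.10 and 1.13 ± 0.0265 FPKM (interval -0.11 to 0.33). Summed over the 3 forms the level was 5.42 ± 0.115 FPKM in NC and 5.49 ± 0.180 in siEIF1 libraries, with overlap, while the share of PFKFB2 was 27.0% ± 3.65 in NC and 33.4% ± 1.57 in siEIF1 libraries and that of PFKFB3 53.5% ± 2.71 and 46.0% ± 2.31, both without overlap.

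GPI, TPI1 and the aldolases complete the upper part of the pathway. ALDOC, the brain-type aldolase (ENSG00000109107, reverse strand of chr17:28573115-28576948), was at 3.09, 4.14 and 3.34 FPKM in NC and 4.66, 5.0 and 4.76 FPKM in siEIF1 libraries. All siEIF1 libraries lay above the NC libraries, of which replicate 2 was nearest. ALDOC rose 1.38-fold (log2 fold change 0.47 ± 0.105, adjusted p = 0.0067). The ALDOA record, with the reads it was left, had an interval from -0.13 to 0.38. GPI, which turns glucose phosphate into fructose phosphate, was at 18.2 ± 0.242 and 18.6 ± 0.270 FPKM (interval -0.05 to 0.14). TPI1, which interconverts the triose phosphates, was at 223 ± 4.93 and 199 ± 12.1 FPKM. Its FPKM values did not overlap but its CPM values did, and it was not called (log2 fold change -0.14, interval -0.27 to -0.006, adjusted p = 0.136).

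GAPDH couples oxidation of the triose phosphate to NADH, and is also the gene that the study used as its RT-qPCR reference. Both primers of that assay are shown because the level of their target bears on any value set relative to it:
GAPDH-F: ggtcggagtcaacggatttg
GAPDH-R: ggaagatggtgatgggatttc
On GRCh38 the forward primer crosses the junction of exons 2 and 3 of the 9-exon canonical transcript, between chr12:6534847 and 6536498, and the reverse primer lies in exon 4 at chr12:6536766-6536786. Both lie in the coding sequence, and the product is 218 bases of a transcript of 1285.

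GAPDH (ENSG00000111640, forward strand of chr12:6534512-6538374) was at 1357, 1383 and 1345 FPKM in NC replicates 1 to 3 and at 1707, 1672 and 1593 FPKM in siEIF1 replicates 1 to 3. Every siEIF1 library was above every NC library. GAPDH rose by 23.5% (log2 fold change 0.30 ± 0.0553, adjusted p = 0.00169), and took 0.394% to 0.411% of all counts in NC and 0.463% to 0.4996% in siEIF1 libraries. A noncoding gene model on the opposite strand, ENSG00000269968, overlaps 17.6% of its exon bases and had 7432 to 12664 counts, with overlapping groups (log2 fold change 0.25, adjusted p = 0.179). Without siEIF1 replicate 3 it was called (0.41, adjusted p = 0.00125). With all libraries it was also called with no count filter (0.24, adjusted p = 0.000303) and with the replicate number as a block (0.23, adjusted p = 0.00643). The libraries were directional per the study's methods, but whether the counting used strand is not given, so how reads were split between the pair is uncertain. The 14 listed pseudogenes of GAPDH together held at most 0.028% of its counts in any library. Set relative to GAPDH, the log2 fold change of EIF1 would be -3.89 instead of -3.58, that of HK2 -0.71 instead of -0.41 and that of PFKL 0.20 instead of 0.51. On that scale TKT and PFKFB2 would be at 0.03 and 0.04.

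Of the steps after GAPDH, those of PGK1 and ENO2 had called members, both lower in siEIF1. PGK1, the kinase of the first ATP-yielding step (ENSG00000102144, forward strand of chrX:77910739-78129295), was at 54.0, 55.5 and 52.5 FPKM in NC and 48.7, 47.6 and 45.9 FPKM in siEIF1 libraries. It fell by 0.17 on the log2 scale (SE 0.0521, adjusted p = 0.0367) without overlap. ENO2, the neuronal-type enolase (ENSG00000111674, forward strand of chr12:6913745-6923698), was at 18.2, 20.5 and 19.0 FPKM in NC and 16.4, 16.5 and 15.7 FPKM in siEIF1 libraries. ENO2 fell by 0.23 (SE 0.0573, adjusted p = 0.0123), again with all siEIF1 libraries below the NC libraries. Both calls lay near the threshold: PGK1 missed it when any library except siEIF1 replicate 1 was left out (log2 fold change -0.20 to -0.13, adjusted p 0.0568 to 0.128), and ENO2 missed it without NC replicate 2 (log2 fold change -0.18, adjusted p = 0.0608).

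ENO1, the main enolase, held 95.0% of the summed enolase FPKM in NC and 95.3% in siEIF1 libraries. Its levels of 368, 373 and 367 FPKM in NC and 338, 327 and 328 FPKM in siEIF1 libraries did not overlap, yet it missed the threshold in edgeR (log2 fold change -0.14, interval -0.24 to -0.03, adjusted p = 0.0726) and passed it in DESeq2 (adjusted p = 0.0112). Summed enolase transcripts were at 389 ± 4.29 FPKM in NC and 348 ± 6.18 in siEIF1 libraries, without overlap. PGAM1, the mutase before enolase, was at 65.2 ± 0.555 and 68.7 ± 2.73 FPKM (interval -0.01 to 0.21). PKM, which makes pyruvate and a second ATP, was at 165 ± 1.71 and 174 ± 2.18 FPKM (interval -0.01 to 0.19). The gene-level values do not separate the PKM splice forms. GAPDH, TPI1 and ENO2 lie on the same arm of chromosome 12, with 329 kb between GAPDH and TPI1 and 42.8 kb between TPI1 and ENO2. Across this short stretch GAPDH rose, ENO2 fell and TPI1 was not called.

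**Figure D4:**
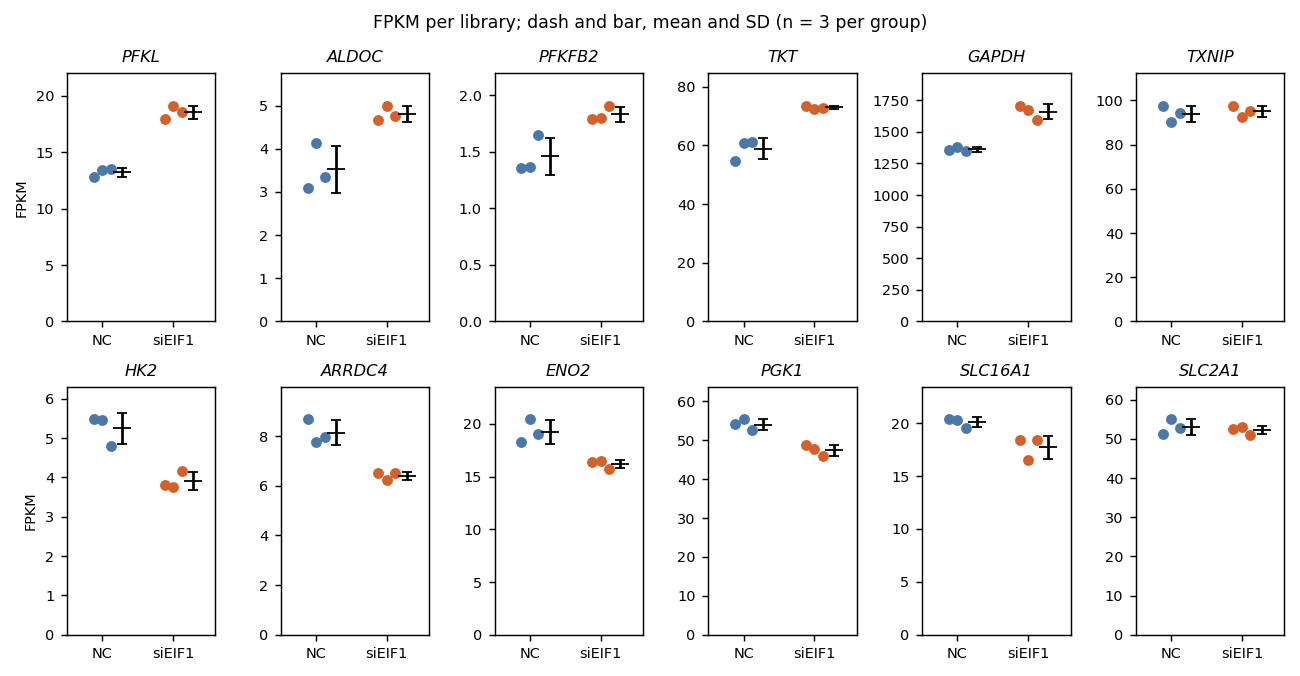
FPKM of the 10 called members and of TXNIP and SLC2A1 in each library (points), with the mean (dash) and SD (bar) of 3 libraries per group on axes that start at 0. For each called member all siEIF1 libraries lie on one side of all NC libraries, whereas TXNIP and SLC2A1 overlap.

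Pyruvate is either reduced to lactate and exported or burned in mitochondria. SLC16A1 (MCT1), a monocarboxylate transporter with high affinity for lactate (ENSG00000155380, reverse strand of chr1:112911847-112957593), was at 20.4, 20.3 and 19.6 FPKM in NC and 18.4, 16.5 and 18.4 FPKM in siEIF1 libraries. The groups did not overlap, and siEIF1 replicate 2 was lowest. SLC16A1 fell by 0.16 on the log2 scale (SE 0.0497, adjusted p = 0.0353). Its call was lost when any NC library or siEIF1 replicate 2 was left out (adjusted p 0.0541 to 0.156) and with limma on log2(FPKM + 1) (adjusted p = 0.0536). SLC16A3 (MCT4), a lactate exporter of glycolytic cells, was at 50.0 ± 3.48 and 48.8 ± 0.532 FPKM and was not called (interval -0.14 to 0.11). LDHA, the subunit that favours lactate formation, was at 100, 104 and 86.5 FPKM in NC and 87.2, 85.6 and 77.7 FPKM in siEIF1 libraries. NC replicate 3 lay among the siEIF1 libraries, and LDHA was not called (log2 fold change -0.19, interval -0.36 to -0.03, adjusted p = 0.0944). Without that library the log2 fold change was -0.28 (adjusted p = 0.0258), and DESeq2 on all libraries called it (adjusted p = 0.0372).

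Entry of pyruvate into mitochondrial oxidation is set by pyruvate dehydrogenase and its inhibitory kinases. PDHA1, the catalytic subunit, was at 11.4 ± 0.123 FPKM in NC and 11.7 ± 0.0874 in siEIF1 libraries (interval -0.05 to 0.15). PDK1, the kinase induced by low oxygen, was at 1.93 ± 0.178 and 1.74 ± 0.0794 FPKM (interval -0.29 to 0.03), and neither was called. PDK2, outside the members, rose by 0.37 (adjusted p = 0.0035), from 7.12 ± 0.630 to 9.06 ± 0.584 FPKM. Among the 4 kinases PDK1 held 17.6% ± 1.45 of the summed FPKM in NC and 13.6% ± 0.951 in siEIF1 libraries, and PDK2 held 64.7% ± 2.47 and 70.8% ± 1.94, both without overlap.

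In the pentose phosphate pathway the one called member belongs to the nonoxidative branch. TKT (transketolase, ENSG00000163931, reverse strand of chr3:53224712-53256052), which moves carbon between pentoses and glycolytic sugars, was at 54.8, 60.7 and 61.2 FPKM in NC and 73.6, 72.5 and 72.9 FPKM in siEIF1 libraries. The siEIF1 libraries were close together and all above the NC libraries. TKT rose by 25.8% (log2 fold change 0.33 ± 0.0539, adjusted p = 0.000783). TALDO1 (transaldolase), its partner in that branch, was at 44.5 ± 3.45 and 43.5 ± 0.248 FPKM (interval -0.13 to 0.11), and RPIA, which isomerizes ribose phosphate, at 9.08 ± 0.612 and 8.35 ± 0.182 FPKM (interval -0.25 to 0.05). In the oxidative branch, PGLS (lactonase) was at 23.4, 22.8 and 23.4 FPKM in NC and 25.7, 25.6 and 24.2 FPKM in siEIF1 libraries. Its groups did not overlap but it was not called (log2 fold change 0.14, adjusted p = 0.0721). PGD, the dehydrogenase that yields NADPH, was at 38.5 ± 0.401 and 40.6 ± 0.975 FPKM (log2 fold change 0.10, interval 0.004 to 0.19, adjusted p = 0.138).

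The polyol and hexosamine members were not called. AKR1B1 (aldose reductase), which turns glucose into sorbitol and is a classic enzyme of diabetic complications, was at 47.7, 45.2 and 47.6 FPKM in NC and 46.7, 45.0 and 43.5 FPKM in siEIF1 libraries. The groups overlapped (interval -0.14 to 0.07). SORD (sorbitol dehydrogenase) was at 1.11 ± 0.0751 and 1.04 ± 0.010 FPKM (interval -0.24 to 0.09). GFPT1, the entry enzyme of the hexosamine pathway, was at 6.43 ± 0.695 and 6.04 ± 0.532 FPKM (interval -0.23 to 0.09).

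TXNIP and ARRDC4, paralogous arrestin-domain genes that restrain glucose uptake and are the best known targets of MondoA, had different outcomes: ARRDC4 was called and TXNIP was not, and the difference between them was not tested. Promoter stretches from RefSeq (GRCh38.p14) are shown for them and for GFPT1, HK2 and GAPDH, with capitals marking letters of the E-box CACGTG or of the paired form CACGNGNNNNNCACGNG, searched on both strands in windows from 250 bases before to 50 bases after a transcript start. The windows of 34 of the 38 members were matched. Those of TXNIP (chr1:145996631-145996687, reverse strand), GFPT1 (chr2:69387297-69387353, reverse strand, matched on its other strand), ARRDC4 (chr15:97960473-97960518, forward strand), HK2 (chr2:74834956-74835001, forward strand) and GAPDH (chr12:6535163-6535208, forward strand) read, 5′ to 3′ along the gene:
TXNIP: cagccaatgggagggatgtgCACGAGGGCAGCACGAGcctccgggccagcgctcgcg
GFPT1: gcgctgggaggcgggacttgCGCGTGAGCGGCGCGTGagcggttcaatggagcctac
ARRDC4: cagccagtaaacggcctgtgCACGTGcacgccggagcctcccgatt
HK2: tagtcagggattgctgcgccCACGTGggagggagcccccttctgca
GAPDH: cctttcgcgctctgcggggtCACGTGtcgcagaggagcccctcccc
The paired form lies 71 bases before the start of TXNIP and 89 bases before that of GFPT1. It was found in these 2 of 62 member windows (3.23%) and in 20 (0.0570%) of all 35116 windows, the 2 being among the 20. TXNIP is a member as a known target of MondoA, so its match could be foreseen and the shares do not test an excess. The E-box was in 7 member windows (11.3%), those of ALDOA, ALDOC, ARRDC4, GAPDH, HK2, LDHA and PFKFB3, and in 7.26% of all windows. An E-box can be part of a paired match, but no member window held both. The HK2 and GAPDH windows belong to transcript starts inside the GENCODE gene bounds given above. A match is a description of letters, and the called E-box genes include both risen (ALDOC, GAPDH) and fallen (ARRDC4, HK2) members.

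TXNIP (ENSG00000265972, reverse strand of chr1:145992435-145996579) was at 97.3, 90.1 and 94.4 FPKM in NC and 97.7, 92.5 and 95.1 FPKM in siEIF1 libraries. The libraries of the groups were interleaved, and the 95% interval of its log2 fold change ran from -0.07 to 0.14. ARRDC4 (ENSG00000140450, forward strand of chr15:97960703-97973833) was at 8.69, 7.75 and 7.97 FPKM in NC and 6.50, 6.22 and 6.50 FPKM in siEIF1 libraries. ARRDC4 fell by 20.1% (log2 fold change -0.32 ± 0.0601, adjusted p = 0.00195), with every siEIF1 library below every NC library. ARRDC3, a relative outside the members, rose by 0.48 (adjusted p = 5.46e-05), from 5.26 ± 0.0819 to 7.24 ± 0.237 FPKM. TXNIP held 87.5% of the summed FPKM of the 3 genes in both groups, while ARRDC4 held 7.58% ± 0.213 in NC and 5.89% ± 0.0789 in siEIF1 libraries and ARRDC3 held 4.91% ± 0.262 and 6.65% ± 0.0616. MLXIP itself, which encodes MondoA, was at 2.33 FPKM on average in both groups (SD 0.125 in NC and 0.265 in siEIF1, interval -0.14 to 0.18). Its partner MLX, outside the members, was at 7.50 ± 0.0964 FPKM in NC and 6.66 ± 0.192 in siEIF1 libraries. The groups did not overlap for MLX, but it was not called (log2 fold change -0.15, adjusted p = 0.0622).

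Other genes of the same pathways, a list of 78 of which 74 had values and 61 were tested, were called at a like rate. Of the tested genes, 9 rose and 8 fell (27.9% called, against 20.6% of all tested genes), with a median log2 fold change of 0.0023 and none past the fold change limit. The count of risen genes was 5 without NC replicate 1 or NC replicate 3, and that of fallen genes was 5 without NC replicate 2 or 3 and 4 without siEIF1 replicate 2. In the hexosamine pathway 4 of 9 tested genes fell, but 1 to 3 did with any single library left out, and only UAP1 was called lower without NC replicate 3, without siEIF1 replicate 2 or with limma. UAP1, which makes the end product of that pathway, fell by 0.60 (adjusted p = 0.000386), from 43.1 ± 6.86 to 28.04 ± 2.21 FPKM, and GNPNAT1, its acetyltransferase, by 0.24 (adjusted p = 0.0249), a call lost without NC replicate 1, NC replicate 3 or siEIF1 replicate 2 (adjusted p 0.0581 to 0.124). AMDHD2, a deacetylase, and OGT, the transferase that puts the sugar on proteins, also fell, by 0.22 and 0.16 (adjusted p = 0.0463 and 0.046), AMDHD2 losing its call without any library but NC replicate 1 and OGT without any but siEIF1 replicate 3. AMDHD2 also missed the threshold in DESeq2 (adjusted p = 0.0747) and with upper quartile normalization (adjusted p = 0.0506). In contrast to these genes GNPDA1, which runs the entry step backwards, rose by 0.34 (adjusted p = 0.000317). KHK (ketohexokinase), which phosphorylates fructose, fell by 0.54 (adjusted p = 0.00699).

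In glycogen metabolism GYS1, the synthase of nonhepatic cells, rose by 0.49 (adjusted p = 8.39e-05) and PYGL, a phosphorylase that breaks glycogen down, fell by 0.25 (adjusted p = 0.00184). The other 8 tested glycogen genes were not called. EMB and BSG, which chaperone monocarboxylate transporters to the membrane, rose, EMB by 0.29 (adjusted p = 0.00214) and BSG by 0.17 (adjusted p = 0.0265), while the transporter SLC16A7 (MCT2) fell by 0.38 (adjusted p = 0.0115, and 0.051 and 0.0541 without NC replicate 2 and siEIF1 replicate 2). PDP1, a phosphatase of pyruvate dehydrogenase, and AKR1A1, a relative of aldose reductase, rose by 0.19 each (adjusted p = 0.0424 and 0.023). The calls of BSG and AKR1A1 were lost without any library but siEIF1 replicate 3 (adjusted p 0.0636 to 0.117 and 0.0668 to 0.108). That of PDP1 was lost without any but siEIF1 replicate 2 (adjusted p 0.0672 to 0.149). With limma on log2(FPKM + 1), SLC16A7 and PDP1 were not called (adjusted p = 0.0771 and 0.180). SLC2A12, a minor glucose transporter, rose by 0.79 (adjusted p = 0.0469) at 0.143 ± 0.0115 FPKM in NC and 0.243 ± 0.0764 in siEIF1 libraries. Its standard error (0.260) was the widest among the called members and called genes of the lists. With libraries left out in turn, its call was kept only without siEIF1 replicate 2 (adjusted p 0.0946 to 0.149 otherwise). DESeq2 and limma on log2(FPKM + 1) did not call SLC2A12 (adjusted p = 0.101 and 0.124). None of the 8 further pentose phosphate genes tested was called.

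**Figure D5:**
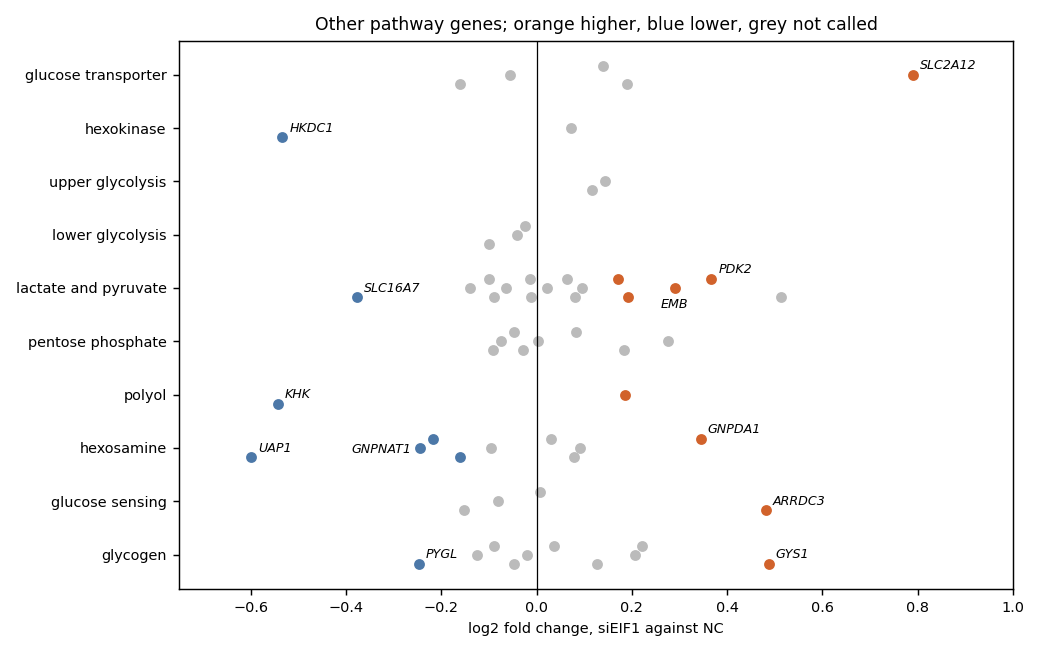
Log2 fold changes, siEIF1 against NC, of the 61 tested genes of the same pathways that are not members, 1 point per gene by role, orange for genes called higher, blue for genes called lower and grey for the rest. Of the 5 called hexosamine genes, 4 lie on the lower side, led by UAP1 at -0.60, and GNPDA1 lies at 0.34.

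Many members are also switched on by low oxygen through HIF, so 26 further genes of the hypoxia response were read in the same fit. Of these, 3 rose, namely ERO1A (0.50), KDM4B (0.49) and SLC6A8 (0.36), and 4 fell, namely PLIN2 (-0.72), VEGFA (-0.39), STC2 (-0.37) and INSIG2 (-0.21), all as log2 fold changes. Together they were 26.9% of the list, against 20.6% of all tested genes, and the median was -0.03. VEGFA, the growth factor that drives vessel leakage in diabetic retinopathy, was at 13.5 ± 0.710 FPKM in NC and 10.2 ± 0.656 in siEIF1 libraries (adjusted p = 0.000218). The INSIG2 call was lost without NC replicate 1, NC replicate 3 or siEIF1 replicate 2 (adjusted p 0.0547 to 0.105). It was also lost with limma on log2(FPKM + 1) (adjusted p = 0.0547). PLIN2, a lipid droplet coat protein, varied between NC libraries (93.4 ± 20.6 FPKM, against 56.1 ± 3.66 in siEIF1 libraries).

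Without siEIF1 replicate 3, the library that stood apart, 11 members were called and 9 of these were among the 10 above. PGAM1 (log2 fold change 0.14, adjusted p = 0.0377) and PGLS (0.18, adjusted p = 0.0149) were then called higher, and PGK1 was no longer called. PFKL, ALDOC, PFKFB2, TKT, GAPDH, HK2 and ARRDC4 were called with each of the 6 libraries left out in turn.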

How the data were processed

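The authors filtered and trimmed paired-end reads of directional polyA libraries, aligned them to GRCh38 with HISAT2 and deposited read counts per gene and FPKM values, which divide fragments by gene length and by mapped fragments. The counting program, its strand setting and the annotation release are not given in the sources used here, so overlapping and antisense genes and near-identical copies are uncertain. Samples were grouped by their titles (3 NC and 3 siEIF1), and totals ranged from 26499929 to 31431479 counts per library. Standard errors of the members' log2 fold changes ran from 0.0438 (GPI) to 0.119 (ALDOA).

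The deposited counts were filtered with filterByExpr (16749 of 30618 genes), TMM-normalized and tested across all genes with edgeR 4.0.16 in R 4.3.3 (two-sided quasi-likelihood test, Benjamini-Hochberg adjustment over all tested genes, threshold 0.05). Standard errors were derived from the quasi-likelihood F statistic. Levels and isozyme shares use FPKM, for which 30275 genes had values. Alternatives were RLE and upper quartile normalization, no count filter, at least 10 counts in every library, DESeq2 1.42.0, limma 3.58.1 on log2(FPKM + 1) and log2(FPKM + 0.1), the replicate number as a block, an adjusted p under 0.01 and leaving out each library. Replicate libraries differed by more than sampling noise.

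Members and lists were chosen with earlier results of these data known. Named are EIF1, all members, cell type markers and the called genes of the pathway and hypoxia lists, the latter with their log2 fold changes. MLX, the partner of MLXIP, was added after its values were seen. The 3 overlapping gene models were added after their values were seen. Gene bounds and exons come from GENCODE 44 on GRCh38 and promoter windows from RefSeq (GRCh38.p14). Splicing was not analysed here.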

Additional observations from a re-analysis of the deposited data

How the results depend on the processing

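Under RLE and upper quartile normalization, both count filters, DESeq2 and limma, 4 or 5 members were called higher and 5 to 7 lower, and none passed the fold change limit in any alternative run. At an adjusted p under 0.01, 2 members were called lower. With libraries left out in turn, members called lower ranged from 2 to 5 and called higher from 5 to 7, other pathway genes called lower from 4 to 8 and higher from 5 to 7. Limma on FPKM called 5 other pathway genes lower with either pseudocount. The replicate numbers were checked for pairing: deviations of same-numbered libraries correlated at 0.149, 0.0946 and 0.128, not all above 0.1. Each library correlated best with its own number. What the numbers stand for is not given, and 3 libraries per group cannot show whether they mark a pairing. Fitting the replicate number as a block called 4277 genes, against 3446 without it. With the replicate block, 8 members were called lower and 6 higher. HK2, ARRDC4, PFKL, ALDOC, GAPDH and TKT were called under every alternative fit at an adjusted p under 0.05.

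Signs turned only for members that were not called. SLC2A1 was at 0.00034 with upper quartile normalization and 0.00047 with at least 10 counts in every library, and MLXIP at -0.0024 and -0.0046 with limma. With libraries left out, the log2 fold change ran from -0.029 to 0.030 for SLC2A1, -0.018 to 0.065 for HK1, -0.089 to 0.042 for LDHB, -0.065 to 0.033 for SLC16A3, -0.072 to 0.038 for TALDO1, -0.059 to 0.0051 for AKR1B1 and -0.036 to 0.108 for MLXIP. The cause of these changes was not tested. LDHA was also called with no count filter and with the block, ENO1 with limma and the block, and TPI1 and PGLS with the block (adjusted p = 0.0309 and 0.0406). With 3 libraries per group, members of low count such as ALDOA and PFKFB4 have intervals too wide to show changes of the size seen for PGK1 or SLC16A1.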
